A study of Mus musculus with 8 samples.

Results

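Called peaks of the transcription factor YY1, from wild-type (WT) cells and cells with a deletion in Alkbh5, merged into 20558 regions. The deletion is named del-cIDR in the labels and ΔcIDR here. Of the regions, 258 were called in both WT libraries and in at most 1 of the 2 ΔcIDR libraries. The members were chosen by pooling the peaks of the 4 YY1 libraries on chromosomes 1 to 19 and X, merging peaks that shared at least 1 bp, and keeping the regions with that pattern of calls. The choice therefore rests on the YY1 calls, and every YY1 value of a member below is a description without a test. The cells were E14TG2a, an established line of mouse embryonic stem cells, and both genotypes were grown with 1000 U/ml LIF, 1 µM PD0325901 and 3 µM CHIR99021. PD0325901 inhibits MEK and CHIR99021 inhibits GSK3, a pairing used to hold embryonic stem cells in the naive state. Both YY1 and P300, a histone acetyltransferase, were mapped by CUT&RUN, in which an antibody brings a nuclease to its target protein and the DNA cut out around it is sequenced. Each antibody and genotype had 2 libraries, 8 in all, with no statement in the labels that replicates came from separate cultures or that the ΔcIDR cells came from more than 1 clone. A permutation p-value here therefore reflects how much these libraries scatter, and that scatter may be technical.

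YY1 is a zinc-finger protein that binds promoters and enhancers and can bridge them by pairing with itself. In embryonic stem cells it sits at promoters of many housekeeping genes. P300 acetylates histones and is widely mapped as a mark of active enhancers. ALKBH5 removes the m6A mark from RNA, and the series asks how intrinsically disordered regions limit the genomic sites that such enzymes reach. A region without a peak is one that the authors' caller did not report at its threshold, which is not the same as a region without YY1.

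The 258 members made up 1.25% of all merged YY1 regions and 11.4% of the 2266 regions called in both WT libraries. The other 2008 regions of both WT libraries were called in all 4 YY1 lists. Of the members, 60 (23.3%) had no ΔcIDR peak, which is 0.292% of the merged regions, 55 (21.3%) also had a peak in ΔcIDR replicate 1, and 143 (55.4%) had one in ΔcIDR replicate 2. The ΔcIDR lists were the longer ones, with 9167 and 15517 peaks in replicates 1 and 2 against 3519 and 5833 in WT replicates 1 and 2. Their longer list reached 94.9% of the regions of both WT libraries and the shorter 91.0%. Regions of the opposite kind, in both ΔcIDR libraries and at most 1 WT library, numbered 3669, or 17.8% of the merged regions and 64.6% of those in both ΔcIDR libraries. List length bounds each of these counts, so the 258 and the 3669 are not comparable as they stand. With every list held to its 3519 highest-ranked peaks there were 548 regions of the first kind and 859 of the opposite kind. Dropping a library changes the rule as well as the data. With WT replicate 1 or 2 dropped, so that a single WT call was asked for, 2379 or 1121 regions met it. With ΔcIDR replicate 1 or 2 dropped, so that the other ΔcIDR list had to lack the region, 114 or 203 did.

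Most members were peaks of middling or low rank in the WT lists. Ranked by −log10 q within a list, with 100 the strongest, the median member stood at percentile 42.7 in WT replicate 1 and 47.0 in replicate 2. The regions of all 4 lists stood at 68.5 and 77.7 in the same lists. The mean of both WT percentiles was under 50 for 162 members, at least 70 for 26 and at least 90 for 7. The weaker of the 2 WT −log10 q values was under 2 in 28 members (10.9%) and in 44 regions of all 4 lists (2.19%). It reached 5 in 38 members (14.7%) against 1122 of the latter (55.9%). Members thus lay nearer to the calling threshold than the regions of all 4 lists, though a minority did not. Both sets were defined by YY1 calls, so part of this order follows from the rule. Over all merged regions with a peak in the list, the median percentile was 50.1 in WT replicate 1 and 50.3 in replicate 2.

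**Figure D1:**
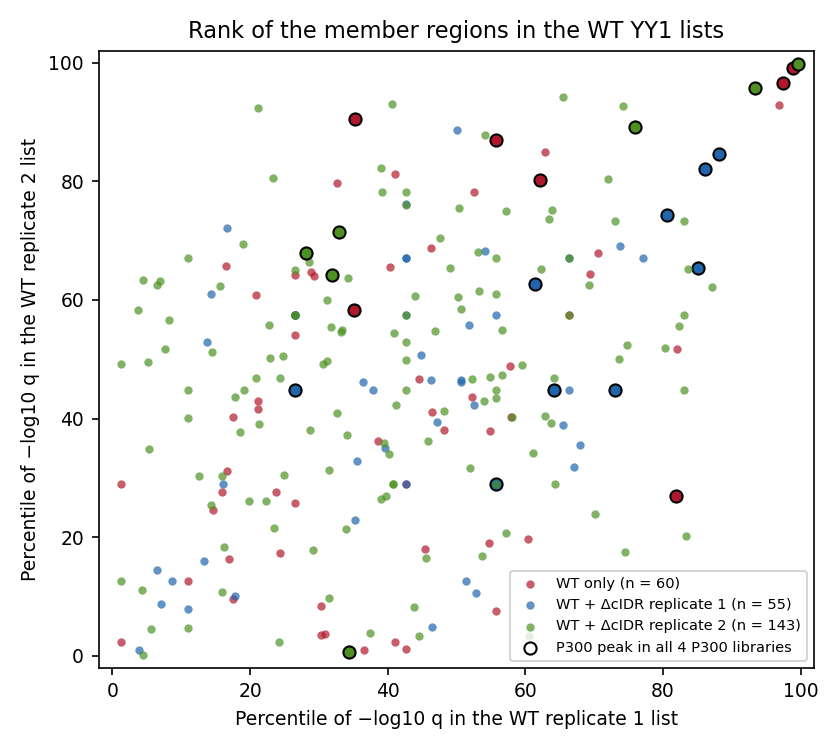
Percentile of −log10 q of each of the 258 members in the list of WT replicate 1 (x axis) and WT replicate 2 (y axis), coloured by the ΔcIDR library that also held the region, with black rings for members that had a P300 peak in all 4 P300 libraries. Most members sit in the lower and middle ranks, while 7 average 90 or more, and 4 of those 7 carry a ring.

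The reads behind a typical member were few. Whole reads at each peak summit, and the local background they were compared with, were solved from the deposited fold enrichment and −log10 p, which succeeded for 97.8% to 99.9% of the peaks of a list. Members had a median of 11 reads at the summit in both WT libraries (quartiles 10 and 14 in each), against 15 and 17 in WT replicates 1 and 2 for the regions of all 4 lists. The deposited fold, a ratio of summit signal to local background, had a median of 4.93 and 5.19 in the members and 5.85 and 6.60 in the regions of all 4 lists. Over all merged regions with a peak in the list, the medians were 12 reads in both WT libraries and folds of 5.21 and 5.20. The fewest reads that made a peak were 6 in both WT lists, 5 in ΔcIDR replicate 1 and 4 in ΔcIDR replicate 2. The lowest background in a list, in reads, was 0.835 and 0.816 in WT replicates 1 and 2, 0.586 in ΔcIDR replicate 1 and 0.324 in ΔcIDR replicate 2. The ΔcIDR lists therefore reached down to smaller read numbers, and their part in which regions were called was not tested.

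Members were narrower than the regions of all 4 lists and had a single peak in each WT list. Their median width was 407.5 bp (quartiles 316.5 and 517.5), against 636 bp for the regions of all 4 lists and 425 bp for the opposite kind. A merged region grows with the number of peaks in it, so part of this order follows from the rule. Among the 60 members of WT cells alone the median was 347 bp. The WT peaks overlapped each other directly in 250 members, while 8 were joined only through a ΔcIDR peak. WT summits lay a median of 73 bp apart, against 63 bp in the regions of all 4 lists, and within 50 bp of each other in 96 members (37.2%) against 43.9%.

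The 4 strongest members called in WT cells alone had similar, high read numbers in both WT libraries. The region at chr3:3005080-3005327 had 75 and 73 reads in WT replicates 1 and 2 over backgrounds of 5.94 and 6.05, the highest backgrounds of the leading 4. The region at chr6:17840406-17840917 had 47 and 53 reads, with folds of 14.9 and 16.6. At chr16:17040092-17040308 there were 35 and 33 reads, and at chr11:31872609-31872852 there were 28 and 21. In these 4 regions the replicates were close, and all 4 stood above percentile 94 on average. The next region of WT cells alone, at chr9:67120799-67121276, had a mean percentile of 73.9 with 15 and 21 reads. Ranks 5 to 10 had 10 to 19 reads in WT replicate 1 and 12 to 23 in replicate 2, with mean percentiles of at most 73.9. Read number and rank did not always go together, since chr11:3135835-3136122, with the most reads after rank 10, had 51 and 45 over backgrounds of 19.7 and 18.2. Its mean percentile was 49.1.

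The members shared with 1 ΔcIDR library also had a few strong regions at their head. At chr13:9061739-9062204 the reads were 158 and 152 in WT replicates 1 and 2 and 80 in ΔcIDR replicate 2, with folds of 28.5, 29.7 and 29.8. It ranked at percentile 99.8 in ΔcIDR replicate 2, and the nearest peak of ΔcIDR replicate 1 was 15727 bp away. A region of this strength was thus listed in 3 libraries and missing from the list of the fourth. The reverse held at chr2:22634872-22635138, with 84 and 100 reads in WT replicates 1 and 2, 74 in ΔcIDR replicate 1 and the nearest peak of ΔcIDR replicate 2 at 154979 bp. Its folds were 20.1, 24.7 and 20.7 in that order. At both regions the ΔcIDR replicate that held the peak had a fold near those of the WT libraries. The ΔcIDR replicates thus differed in their calls, while the list without the peak gives no value to compare.

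Below these, the leading members with 1 ΔcIDR library had fewer reads. With ΔcIDR replicate 2, chr8:20046270-20046739 had 19 and 25 WT reads and 20 ΔcIDR reads, and chr8:71349863-71350433 had 20 and 31 WT reads and 21 ΔcIDR reads. With ΔcIDR replicate 1, chr19:6789938-6790415 had 17 and 16 WT reads but 6 ΔcIDR reads. That region stood at percentile 86.3 in the WT lists and 10.3 in ΔcIDR replicate 1. At chr15:33831858-33832191 the ΔcIDR value was not lower, with 15 and 14 WT reads and 16 in ΔcIDR replicate 1. Over all 143 members held by ΔcIDR replicate 2, its reads lay below both WT read numbers in 77 and above both in 25, while its fold lay above both WT folds in 78 and below both in 29. Over the 55 held by ΔcIDR replicate 1, its reads lay below both in 24 and above both in 12, and its fold above both in 23 and below both in 17. Reads and folds thus pointed opposite ways, beside the lower backgrounds of the ΔcIDR lists, and neither sets an order between genotypes.

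**Figure D2:**
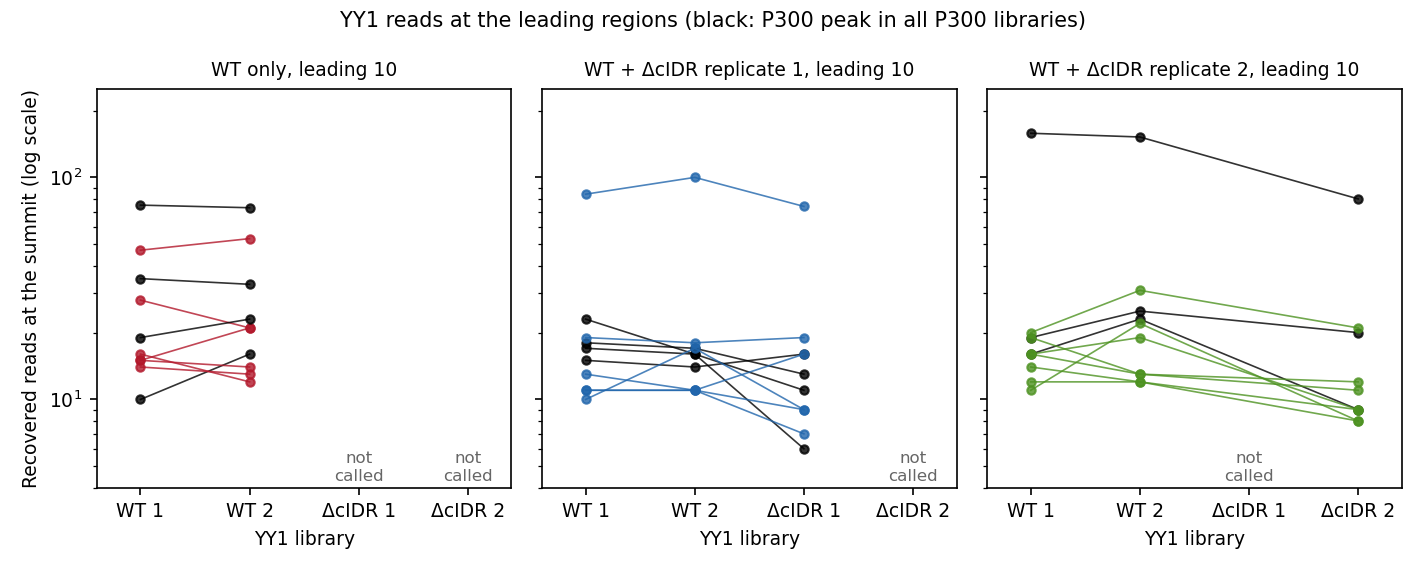
Reads recovered at the YY1 summit (y axis, log scale) in each YY1 library (x axis) for the leading 10 members of WT cells alone (left), of WT plus ΔcIDR replicate 1 (middle) and of WT plus ΔcIDR replicate 2 (right). Each line is 1 region, black where all 4 P300 libraries had a peak, and the regions at the top of the panels reach 75, 100 and 158 reads while most others lie between 10 and 25.

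Regions next to the edge of the rule had few reads on either side of it. The member with the lowest WT value, chr5:136850737-136851045, had −log10 q of 1.68 and 1.31 in WT replicates 1 and 2 and 3.78 in ΔcIDR replicate 2, with 8, 7 and 7 reads. The member at chr3:120732013-120732339 had 1.32 in WT replicate 1, with 6 reads in each WT library, and the one at chr3:132796893-132797539 had 1.32 and 4.45, with 8 and 11 reads. The members at chrX:12006308-12006736 and chrX:152142287-152142924 tied with them at 1.32 in WT replicate 1, with 6 reads each there. Just outside, chr9:12739756-12740174 and chr7:26358989-26359575 were held by ΔcIDR replicate 1 at a −log10 q of 1.51, with 5 reads each. The third such region, chr19:38036916-38037268, was held by ΔcIDR replicate 2 at 1.54 with 7 reads. The weakest calls on both sides of the rule thus rested on 5 to 8 reads.

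Some members had a ΔcIDR peak close by. Of the 203 members without a peak in ΔcIDR replicate 1, 19 (9.36%) had one of its peaks within 1 kb, and of the 115 without a peak in ΔcIDR replicate 2, 18 (15.7%) did. Over all uncalled members the median distances to the nearest peak of ΔcIDR replicates 1 and 2 were 36919 bp and 22095 bp. Neither share was computed for other sets of regions, so neither is shown to be particular to the members. Distances among members, and to the regions of all 4 lists, are given without a background and do not show spacing particular to members. The median distance to the nearest other member was 2.95 Mb, and 18 members lay within 100 kb of another. To the nearest region of all 4 lists the median was 221214.5 bp, and 5 members lay within 1 kb of one.

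By chromosome, the members were most frequent on chromosome 8. It held 30 of the 258 members (11.6%), 6.47% of the regions of all 4 lists, 4.77% of those of the opposite kind and 5.59% of all merged regions. Chromosome 6 followed with 21 members (8.14%, against 6.03%, 4.88% and 5.42% in the same order). Part of the chromosome 8 count came from crowded stretches. In 13 crowded windows, 1 Mb stretches where each P300 list had 10 or more peaks, lay 23 members (8.91%), against 1.27% of all merged YY1 regions, 2.14% of the regions of all 4 lists and 1.01% of the opposite kind. Among the members of WT cells alone 10 of 60 (16.7%) lay there. Chromosome 8 from 20 to 22 Mb held 9 of the 23, and without the crowded windows chromosome 8 had 21 members, 8.94% of those left, against 6.06% of the regions of all 4 lists. The first 4 Mb of a chromosome held 10 members (3.88%), against 1.79% of the regions of all 4 lists and 1.06% of all merged regions. These shares were not tested.

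The P300 libraries played no part in choosing the members and give a separate readout of the same positions. A P300 peak overlapped 39 members (15.1%, Wilson 95% interval 11.3 to 20.0, counting error only) in WT replicate 1 and 44 (17.1%, 13.0 to 22.1) in WT replicate 2. In ΔcIDR replicates 1 and 2 it overlapped 34 (13.2%, 9.59 to 17.9) and 38 (14.7%, 10.9 to 19.6). Over all merged YY1 regions the shares were 2.93% and 4.43% in WT replicates 1 and 2 and 2.73% and 2.66% in ΔcIDR replicates 1 and 2. Both WT shares at the members were above both ΔcIDR shares, by a small margin, as was also the case over all merged regions.

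The small genotype difference in P300 share is one that 4 libraries cannot carry past 0.05. The mean share of members with a P300 peak was 16.1% ± 1.37 (SD, n = 2) in WT and 14.0% ± 1.10 (SD, n = 2) in ΔcIDR libraries, a difference of 2.13 percentage points. The two-sided exact permutation test over 6 assignments gave p = 0.33 (n = 2 per genotype), the smallest it allows, so it cannot pass 0.05. With P300 peaks of −log10 q of at least 3, and likewise with P300 lists of equal length, the difference was 0.78 percentage points (exact permutation p = 1). Without WT replicate 2, whose P300 list of 2474 peaks was the longest, it was 1.16 percentage points.

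Members had a P300 peak more often than the regions of all 4 YY1 lists in each of the P300 libraries. The shares of the latter were 7.52% and 8.86% in WT replicates 1 and 2 and 6.97% and 6.77% in ΔcIDR replicates 1 and 2. Averaged over the 4 libraries the members stood at 15.0% ± 1.59 (SD, n = 4), the regions of all 4 YY1 lists at 7.53% ± 0.943 (SD, n = 4), and the opposite kind at 4.13% ± 1.45 (SD, n = 4). The difference of 7.49 percentage points between the first 2 sets was not tested, since regions are not replicates. It was 2.71 percentage points without the regions that had a peak in all 4 P300 libraries, 3.91 without the crowded windows, and 1.59 when the YY1 lists were cut to equal length. The members of WT cells alone had a mean share of 20.4% ± 2.10 (SD, n = 4), those with ΔcIDR replicate 1 17.7% ± 0.909 (SD, n = 4) and those with ΔcIDR replicate 2 11.7% ± 2.38 (SD, n = 4). Each SD with n = 4 spans both genotypes and lists of unlike length, so it does not measure replicate scatter alone.

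**Figure D3:**
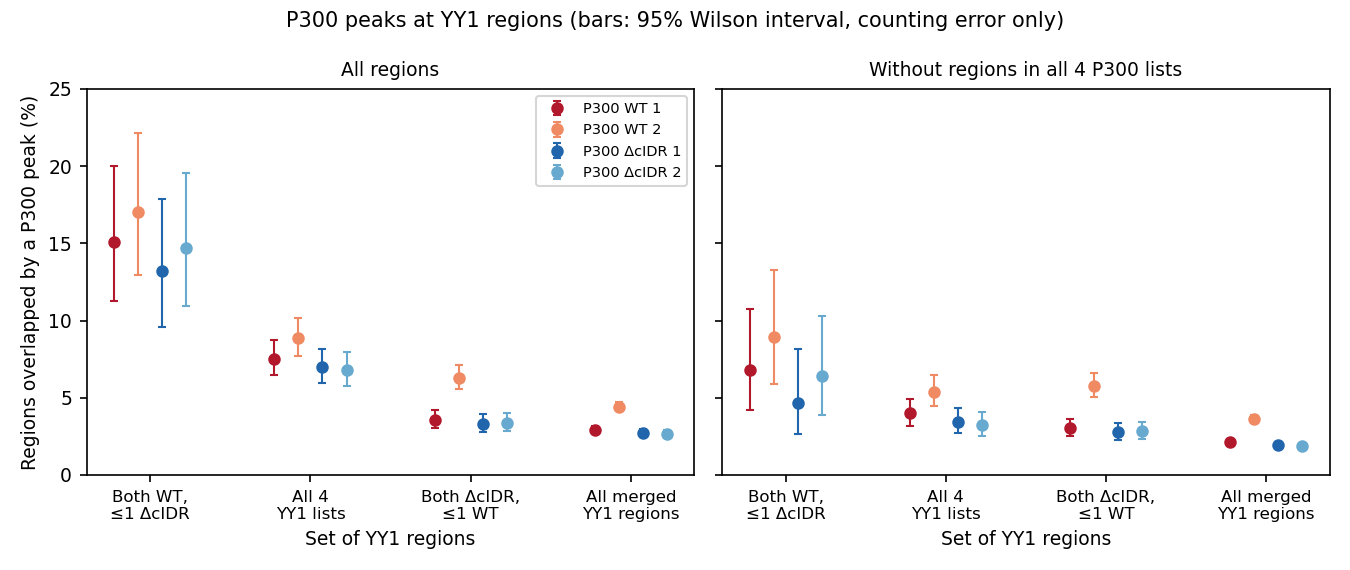
Percent of YY1 regions overlapped by a P300 peak (y axis) in each of the 4 P300 libraries (colours) for 4 sets of YY1 regions (x axis), with 95% Wilson intervals, for all regions (left) and without those that had a peak in all 4 P300 libraries (right). The members lie between 13.2% and 17.1% on the left and between 4.68% and 8.94% on the right, and WT replicate 2, the longest P300 list, is the highest in every set.

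Much of this difference lay at positions with a P300 peak in every P300 library. They made up 23 members (8.91%), against 74 regions of all 4 YY1 lists (3.69%), 20 of the opposite kind (0.545%) and 0.822% of all merged YY1 regions. Of these 23 members 7 were called for YY1 in WT cells alone, 9 also in ΔcIDR replicate 1 and 7 also in ΔcIDR replicate 2. Crowded windows held 10 of the 23. A further 38 members had a P300 peak in some but not all P300 libraries, and 197 had none. The 61 members with any P300 peak were 23.6% of the members, against 7.72% of all merged YY1 regions.

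The members with the highest YY1 rank were those most often shared with every P300 library. Of the 7 members with a mean WT percentile of at least 90, 4 had a peak in all P300 libraries, and of the 19 from 70 to 90, 7 did. Among the regions of all 4 YY1 lists the counts were 50 of 357 (14.0%) and 15 of 647 (2.32%) in the same ranges. From 50 to 70 it was 6 of 70 members (8.57%) and 7 of 552 regions (1.27%), and under 50 it was 6 of 162 (3.70%) and 2 of 452 (0.442%). The members' share was the higher in all 4 ranges, although the upper 2 ranges hold few members and no test was made. In the WT YY1 lists the 23 members had a median percentile of 64.2 and 71.5, against 40.7 and 46.5 for the 197 members with no P300 peak. Their median background was also higher, at 1.61 and 1.79 reads against 1.43 and 1.34 in WT replicates 1 and 2, and its part in the overlap was not tested.

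At several of these positions ΔcIDR cells had a P300 peak but no YY1 peak. The region at chr3:3005080-3005327 was called for YY1 in WT cells alone. Its P300 folds were 12.0 and 13.6 in the WT and 12.5 and 12.7 in the ΔcIDR libraries. Its P300 reads were 129, 152, 119 and 155, over high local backgrounds of 9.85, 10.2, 8.64 and 11.3 reads. The lowest backgrounds of those P300 lists were 0.776, 0.773, 0.876 and 1.01. The region lay in the first 4 Mb of its chromosome, and its YY1 backgrounds were also high, at 5.94 and 6.05 in WT replicates 1 and 2. The P300 summits lay 11 to 16 bp from the YY1 summit of WT replicate 1. At chr16:17040092-17040308 the P300 folds were 17.3 and 15.5 in WT and 21.0 and 19.5 in ΔcIDR libraries, over backgrounds of 2.30 to 2.63 reads. P300 folds in ΔcIDR cells thus lay within the WT range at the first of these positions and above it at the second. The nearest YY1 peaks of ΔcIDR replicates 1 and 2 lay 4765 and 4876 bp from the first and 1565 and 1615 bp from the second. Of the 60 members of WT cells alone, 14 (23.3%) had a P300 peak in at least 1 ΔcIDR P300 library, against 4.13% of all merged YY1 regions and 9.36% of the regions of all 4 YY1 lists. In both ΔcIDR P300 libraries it was 9 of the 60 (15.0%), against 1.26% and 4.38%. In both WT P300 libraries it was 11 of the 60 (18.3%), against 1.55% and 4.88%. Crowded windows, picked for P300 peaks in every P300 list and so favouring an overlap, held 10 of the 60 (16.7%), against 1.27% and 2.14%. Of the 9, chr8:21152833-21153112, chr8:21060340-21060608, chr8:21064545-21064881, chr11:3077007-3077265 and chr5:15104462-15104834 lay in them and the others did not. These shares were not computed without the crowded windows.

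The strong regions missing from 1 ΔcIDR YY1 list were split in the same readout. At chr13:9061739-9062204 the P300 folds were 41.6 and 39.3 in WT and 39.6 and 38.8 in ΔcIDR libraries, with summits 0 to 2 bp from the YY1 summit of WT replicate 1. Both ΔcIDR P300 libraries thus had a peak there, while only 1 of the ΔcIDR YY1 libraries did. At chr2:22634872-22635138 no P300 library had a peak. The same held at chr6:17840406-17840917, a strong region missing from both ΔcIDR YY1 lists. Of the 30 leading members, 10 in each of the 3 groups, 11 had a peak in all P300 libraries, 18 had none, and chr11:31872609-31872852 had 1 in both WT libraries alone.

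At the 23 members P300 was called in every library by the way they were picked, so only the size of its signal can be described. The P300 folds of both ΔcIDR libraries lay above both WT folds at 5 of the 23, below both at 2, and were interleaved at 16. The median P300 fold over the 23 was 7.56 and 9.68 in WT replicates 1 and 2 and 9.51 and 9.17 in ΔcIDR replicates 1 and 2. Folds of separate lists carry their own backgrounds, so they are set side by side as the authors' values and were not tested. At members with a P300 peak, the P300 summit lay a median of 48 to 63 bp from the YY1 summit of WT replicate 1, depending on the P300 library.

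**Figure D4:**
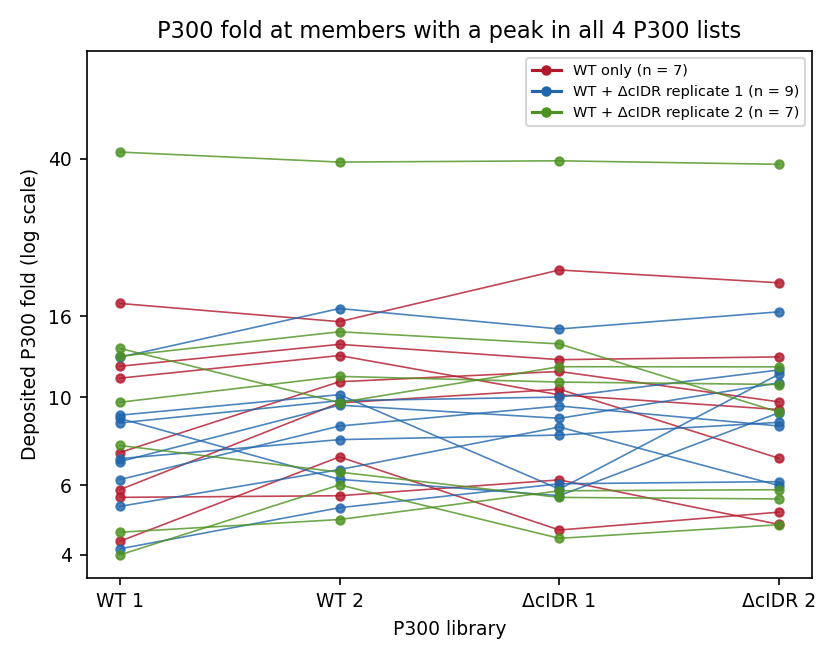
Deposited P300 fold (y axis, log scale) in each P300 library (x axis) at the 23 members with a peak in all 4 P300 lists, 1 line per region, coloured by the ΔcIDR YY1 library that also held the region. The highest line runs at 38.8 to 41.6, and no general rise or fall from the WT to the ΔcIDR libraries is visible, with 16 of 23 regions interleaved.

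The rule used for YY1, applied to the P300 libraries, was met at 9 members (3.49%), against 0.725% of all merged YY1 regions and 1.20% of the regions of all 4 YY1 lists. Both WT P300 libraries and neither ΔcIDR P300 library had a peak at 6 of these (2.33% of the members, against 0.35% and 0.448%). The reverse, both ΔcIDR and neither WT library, held at 3 members (1.16%, against 0.151% and 0.199%). Members thus exceeded these sets in both directions, and the differences were not tested. Members also had more P300 calls in general, so these shares do not show P300 to be steadier in WT cells at members. Both WT P300 libraries had a peak at 32 members, 98 regions of all 4 YY1 lists and 318 merged regions. Of these, 9, 24 and 149 met the rule, in the same order. Of the 6, those called for YY1 in WT cells alone were chr11:31872609-31872852, with P300 folds of 8.53 and 11.5 and reads of 16 and 22, and chr8:41834590-41834997, with folds of 5.23 and 4.53 and 18 reads in each. The other 4 were also held by YY1 ΔcIDR replicate 2, namely chr8:91554905-91555349, chr6:65001193-65001772, chr19:29044352-29044768 and chr5:86555403-86555907, with P300 folds from 3.59 to 5.29. The chromosome 11 region was the strongest of the 6 with either antibody. The 3 of the reverse kind were chr9:80071446-80072223, chr14:15470426-15470748 and chr5:15104462-15104834, with P300 folds of 4.65 to 6.03 in the ΔcIDR libraries, and the last 2 lay in crowded windows. In all, 32 members had a P300 peak in both WT P300 libraries, 29 in both ΔcIDR P300 libraries, and 19 of the 32 lay outside the crowded windows.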

How the data were processed

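CUT&RUN peak lists of YY1 and P300, 1 per library, were used as the authors deposited them. Per the submitters' processing notes the tools were fastp, BWA, SAMtools, Picard, MACS2 and featureCounts with the build GRCm39; roles and versions, and whether a control library entered, are not given in the sources used here. Each deposited peak has a score (10 times −log10 q without decimals in nearly every peak), a fold enrichment (a ratio), a −log10 p, a −log10 q and a summit position. The lowest −log10 q was 1.30 to 1.31, near a q threshold of 0.05. Peaks on Y, mitochondrial DNA, scaffolds and a sequence named dm, 0.683% to 10.0% of a list, were left out. Coordinates count from 1.

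Peaks were merged with Python 3.11.15 and pandas 2.3.3, and the procedure was tested on simulated data. A region's value in a library is that of its peak with the highest −log10 q. Reads k and background b were solved from fold = (k + 1)/(b + 1) and a Poisson tail above k, to within 0.01 of −log10 p. The lists carry no read totals, so library depth is unknown. P300 shares count an overlap of at least 1 bp. Intervals are Wilson. Regions named are the 10 with the best mean WT percentile per group, those with P300 in both WT libraries (the text gives their count and names some) and the 3 on either side of the rule. Members tied at the inner edge of the rule were named as well. The 3 members with P300 in ΔcIDR libraries alone were named after their values were seen. The members, lists and comparisons were chosen with earlier results of these data known. The reference tables at hand are on GRCm38, another build, so sequences, motifs, promoters and gene names are not given. Alternatives are in the closing section.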

Additional observations from a re-analysis of the deposited data

Results flagged for a closer look

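The sequences left out of the report also held regions with this pattern. Of 34 merged YY1 regions outside chromosomes 1 to 19 and X that were called in both WT libraries, 9 were in at most 1 ΔcIDR library, of which 6 were on unplaced scaffolds, 2 on Y and 1 on dm, a name that no label explains. They drew attention as signal in data that no comparison used, and their source was not tested.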

How the results depend on the processing

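With YY1 lists of equal length there were 548 members, 195 of them in WT cells alone, and 859 regions of the opposite kind. With summits chained within 100 bp there were 476 members and 123 in WT cells alone. Leaving out 1 library at a time gave 114 to 2379 members, 114 to 1254 in WT cells alone and 2283 to 13266 of the opposite kind, since the rule then asks for fewer libraries. A −log10 q of at least 2 or 3, or merging within 100 bp, kept these 3 counts within 1.5 times. Between 24 and 30 of the 30 leading members met the rule under every alternative that kept all libraries. A higher −log10 q or shorter lists only remove weaker peaks, so regions chosen for high WT rank stay members there by construction. The 29 with peaks merged within 100 bp and the 24 with chained summits were not fixed in this way. The P300 difference of 2.13 percentage points between WT and ΔcIDR stayed positive in all alternatives, and was 1.16 to 3.10 without 1 library. With labels exchanged only within a replicate number, the replicate block, it was 2.13 with an exact permutation p = 0.5, the smallest that 4 assignments allow. The labels do not say that replicate numbers pair the libraries. The difference in P300 share between members and regions of all 4 YY1 lists was 2.71 without regions in all P300 lists, 3.91 without crowded windows, 1.59 at equal YY1 list length and 7.25 to 7.91 without 1 library. Those alternatives, and crowded windows, were chosen after seeing the data. Promoter and motif alternatives were not run, for want of sequence on this build. The low read numbers at most members limit what a missing call can show.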
